A study of Mus musculus with 96 samples.

Results

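Gata6, Gata4, Sox17, Sox7, Foxa2 and Pdgfra are genes known from the primitive endoderm, and their messenger RNA was followed in single mouse embryonic stem (ES) cells. The 6 genes were taken by name from a table of 23284 gene rows, and all 6 had reads. The cells were 48 single J1 ES cells, a male line of strain 129 mice, all kept in 1 condition: medium with 15% serum and 1000 U/ml leukaemia inhibitory factor (LIF), without feeder cells, at passage 12 to 20. No genetic change, treatment or time course sets any cell apart, and the labels name no separate cultures, so the 48 cells count as 1 sample. Every comparison below therefore describes these cells, with no test and no p-value.

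The primitive endoderm is the layer of the early mouse embryo that forms the yolk sacs, and it arises beside the epiblast, from which ES cells are derived. GATA6 is the factor required to start this lineage, and FGF4 made by epiblast cells drives it through FGF receptors and ERK signalling. GATA4, SOX17, SOX7 and FOXA2 follow, and the receptor tyrosine kinase PDGFRA marks the cells of the layer. ES cells in serum and LIF are known to hold a minority of cells with such genes switched on, and forced GATA6 or GATA4 turns ES cells into extraembryonic endoderm.

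Depth ranged from 4408953 to 9767245 reads a cell, with a mean of 7137821 ± 1251221 (SD, n = 48), and 9040 ± 521 genes a cell had a read. Each cell was sequenced on 2 lanes, and within each cell the lanes differed by no more than counting noise (chi-square per degree of freedom 0.964 to 1.05), so they were summed and a cell counted once. Levels are given as CPM, the share of a cell's scaled total that a gene takes, brought to a common total for all cells. A gene was counted as detected with at least 5 reads after every cell was thinned to 4408953 reads, and shares carry exact Clopper-Pearson 95% intervals. These intervals cover only the drawing of cells and treat the cells as independent, although the labels name no separate cultures. Reads carry no molecular identifiers.

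Cells were divided in 2 ways. By reads of Pou5f1, which encodes the pluripotency factor OCT4, 43 cells had at least 10 and 5 cells (3, 22, 25, 32 and 38) did not. The split had a wide gap, since the 5 cells had 0 to 4 Pou5f1 reads and the lowest of the 43 had 20. By Gata6, 13 cells had 553 to 5273 reads and the other 35 had at most 6, and this division at 50 reads was made after the values were seen. All 5 cells without Pou5f1 were among the 13. The other 8 of the 13 (cells 2, 4, 6, 13, 27, 33, 40 and 41) had at least 50 Gata6 and 10 Pou5f1 reads. The 5 cells had 8108709 ± 619341 reads (SD, n = 5), the 8 had 7754230 ± 984903 (SD, n = 8) and the other 35 had 6858229 ± 1269179 (SD, n = 35). Amplified cDNA had been diluted to a common concentration before library making, per the labels' protocols, so total reads do not measure RNA per cell. Whether any capture site held more than 1 cell was not tested.

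**Figure D1:**
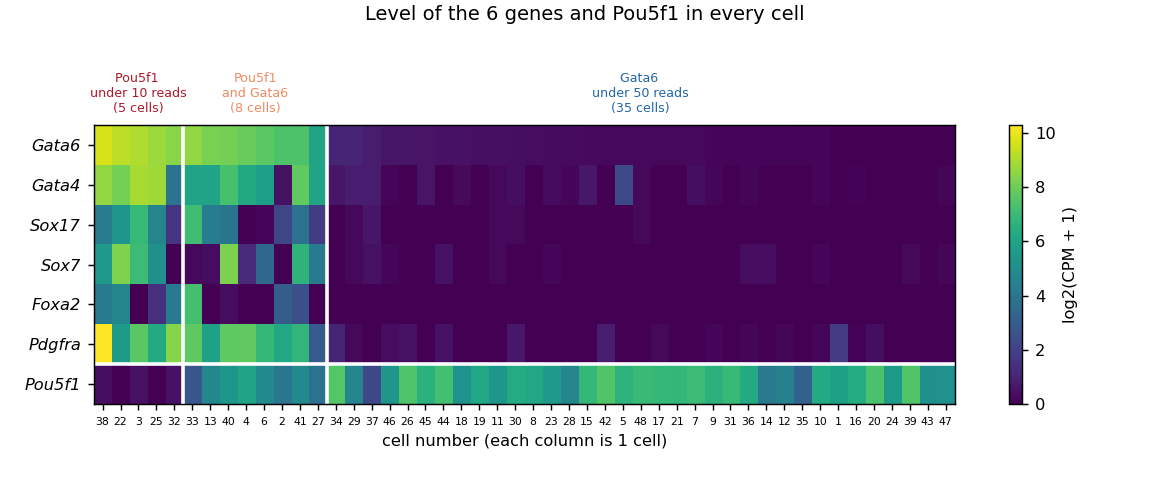
Level of the 6 genes and Pou5f1 in every cell. Columns are the 48 cells, in 3 blocks (5 cells with under 10 Pou5f1 reads, 8 with Gata6 and Pou5f1, 35 with under 50 Gata6 reads), ordered by Gata6 within a block, and colour is log2(CPM + 1). Gata6 and Pdgfra are above background in every column of the first and second blocks, whereas Sox7 and Foxa2 are missing from several of them.

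The 6 genes were concentrated in the same 13 cells. Of all Gata6 reads 99.8% lay there, of Gata4 99.7%, of Sox17 99.7%, of Sox7 99.8%, of Foxa2 100% and of Pdgfra 99.8%. For Gata6 this share follows from how the 13 cells were picked, whereas the other genes took no part in that choice. All 6 genes were, however, chosen with earlier results of these data known. Each of the 13 cells had at least 4 of the 6 genes detected, 31 of the other 35 cells had none, and the remaining 4 had 1 each. No cell had 2 or 3. Of the 13 cells, 4 had 4 genes, 5 had 5 and 4 had all 6. This gap depends on the minimum of 5 reads, since at 1 read 22 cells in place of 13 had at least 3 genes.

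Gata6, the zinc finger factor at the head of this lineage, was detected in 14 of 48 cells, or 29.2% (95% interval 17.0 to 44.1%). In the 5 cells without Pou5f1 its level was 808 CPM in cell 38, 612 in cell 22, 532 in cell 3, 423 in cell 25 and 352 in cell 32. In the 8 cells with both genes it ran from 63.7 CPM in cell 27 over a median of 220 to 392 CPM in cell 33. The 5 cells without Pou5f1 held the higher Gata6 levels, although cell 33 lay above the lowest of them, so the sets overlapped by 1 of 8 cells. Mean Gata6 was 545 ± 178 CPM (SD, n = 5) against 227 ± 99.4 CPM (SD, n = 8). Cell 33 was also the cell with the fewest Pou5f1 reads of the 8, at 37. Among the 8 cells alone, Gata6 and Pou5f1 levels had a Spearman correlation of -0.02, so the cells with more Gata6 did not have less Pou5f1 there.

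Outside the 13 cells Gata6 was scarce but seldom absent. There were 58 Gata6 reads over 35 cells, with a highest level of 1.11 CPM, and 28 of the 35 cells had at least 1 read. Cell 29, with 6 reads, was the single cell of these that passed the detection minimum. The reads outside the 13 cells made up 0.176% of all Gata6 reads, 0.347% of Gata4, 0.275% of Sox17, 0.230% of Sox7 and 0.228% of Pdgfra, and none of Foxa2. Their source was not tested. The kit used for amplification does not mark the transcript strand, so reads of an antisense neighbour of Gata6 cannot be told apart from its own.

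Gata4, a second GATA factor that shares the DNA motif of GATA6 and can start the same programme when forced in ES cells, was detected in 13 of 48 cells (27.1%, 95% interval 15.3 to 41.8%). Its levels without Pou5f1 were 491 CPM in cell 3, 451 in cell 25, 395 in cell 38, 279 in cell 22 and 14.0 in cell 32. In the 8 cells with both Gata6 and Pou5f1 Gata4 ran from 0.380 CPM in cell 2 over a median of 64.0 to 219 CPM in cell 41. Cells 2 and 32 stood apart: they had 1799 and 3457 Gata6 reads but only 4 and 138 Gata4 reads. Cells 25 and 41 had more Gata4 than Gata6 reads (3241 against 3042 and 1685 against 1293). Per kilobase of exon, Gata4 was the higher in cell 41 (60.2 against 52.1 CPM per kilobase). In cell 25 it was the lower (124 against 131). High Gata6 therefore came without matching Gata4 in some cells, and 12 of the 13 had both detected. Outside the 13, cell 5 had 22 Gata4 reads (3.84 CPM) with no other of the 6 genes detected.

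Sox17, a SOX F factor of the endoderm, was detected in 11 of 48 cells (22.9%, 95% interval 12.0 to 37.3%), all among the 13. Without Pou5f1 its levels were 117 CPM in cell 3, 41.6 in cell 22, 24.9 in cell 25, 19.8 in cell 38 and 2.03 in cell 32. In the 8 cells Sox17 ran from 0 CPM in cell 4 over a median of 8.42 to 138 CPM in cell 33. A few cells carried most of it, since cell 33 alone held 35.1% of all Sox17 reads. None of the other 35 cells had Sox17 detected, a count of 0 that allows a share of up to 8.57% by a limit of 3 counts (95% interval 0 to 10.0%), and their 7 reads lay in 5 cells.

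Sox7, a closely related SOX F factor, was found in fewer cells than Sox17: 9 of 48 (18.8%, 95% interval 8.95 to 32.6%). Its levels without Pou5f1 were 319 CPM in cell 22, 133 in cell 3, 46.9 in cell 38, 35.2 in cell 25 and 0 in cell 32. In the 8 cells Sox7 ran from 0 CPM in cell 2 over a median of 5.77 to 306 CPM in cell 40. The top values of the sets with and without Pou5f1 were thus alike, and cells 22 and 40 together held most Sox7 reads. In the same cell the SOX F genes could differ widely: cell 40 had 2247 Sox7 and 110 Sox17 reads, and cell 33 had 1 Sox7 and 894 Sox17 reads.

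Foxa2, a forkhead factor of the visceral and definitive endoderm, was the least often detected, in 7 of 48 cells (14.6%, 95% interval 6.07 to 27.8%). Without Pou5f1 its levels were 25.5 CPM in cell 22, 18.1 in cell 32, 18.1 in cell 38, 1.67 in cell 25 and 0 in cell 3. In the 8 cells Foxa2 ran from 0 CPM over a median of 0.136 to 151 CPM in cell 33. That cell alone held 62.9% of all Foxa2 reads (980 of 1557). The 35 cells outside had no Foxa2 read at all.

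Pdgfra, the receptor for PDGF-AA used as a surface marker of the primitive endoderm, was detected in 15 of 48 cells (31.3%, 95% interval 18.7 to 46.3%). Among them were all 13 cells with at least 50 Gata6 reads. Its levels without Pou5f1 were 1255 CPM in cell 38, 339 in cell 32, 199 in cell 3, 78.4 in cell 25 and 47.7 in cell 22. In the 8 cells Pdgfra ran from 6.68 CPM in cell 27 over a median of 112 to 218 CPM in cell 4. Pdgfra varied more than Gata6 between these cells, with a coefficient of variation of 1.44 over the 13 cells against 0.589 for Gata6. Cell 38 held 38.1% of its reads. Outside the 13, cells 1 and 34 had 19 and 6 Pdgfra reads and no other of the 6 genes detected.

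**Figure D2:**
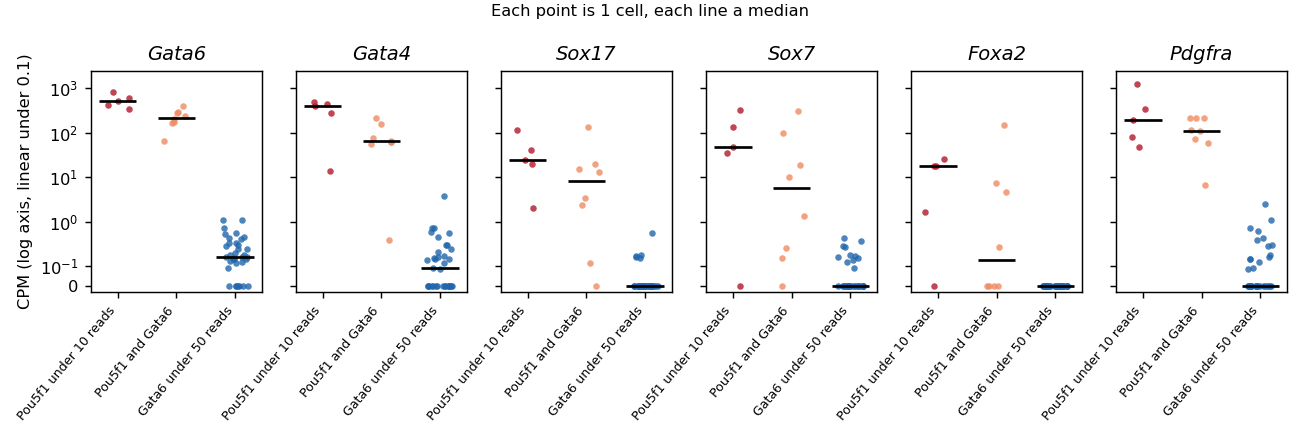
CPM of each gene (vertical axis, logarithmic above 0.1 CPM and linear below) in the 5 cells with under 10 Pou5f1 reads, the 8 cells with Gata6 and Pou5f1 and the 35 cells with under 50 Gata6 reads. Points are cells and lines are medians. Gata6 separates the third set from the rest by its choice, and the highest Foxa2 and Sox17 points belong to cell 33, a cell with Pou5f1.

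Levels of different genes were ordered per kilobase of exon, since longer transcripts give more reads. Mean CPM per kilobase over all 48 cells was 29.3 ± 58.2 for Gata6, 13.4 ± 32.5 for Gata4, 6.97 ± 21.9 for Pdgfra, 6.16 ± 20.2 for Sox7, 2.17 ± 10.2 for Foxa2 and 2.03 ± 6.47 for Sox17 (SD, n = 48). Every SD exceeded its mean because most cells had next to none. Within the 13 cells Gata6 was above Pdgfra, Foxa2 and Sox17 per kilobase in 13 of 13 cells and above Gata4 and Sox7 in 12 of 13. Gata6 was thus the highest in most of the 13 cells, which had been picked by it, but lay below Sox7 in cell 40 and below Gata4 in cell 41. Gata4 was above Pdgfra in 8 of 13 cells, Pdgfra above Sox7 in 7 of 13, and Foxa2 above Sox17 in 5 of 13. By the median over cells in which a gene was detected, Sox7 and Pdgfra changed places.

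Cells without 10 Pou5f1 reads were then set against all 43 cells with them. Mean Gata6 was 545 ± 178 against 42.4 ± 98.0 CPM, a ratio of 12.9. The ratio was 19.8 for Gata4 (326 ± 192 against 16.5 ± 44.3 CPM), 16.3 for Pdgfra (384 ± 500 against 23.6 ± 59.6 CPM) and 10.4 for Sox7 (107 ± 128 against 10.2 ± 48.8 CPM). For Sox17 it was 9.16 (41.1 ± 44.8 against 4.49 ± 21.2 CPM) and for Foxa2 3.33 (12.7 ± 11.2 against 3.80 ± 23.0 CPM), each as mean ± SD over 5 and 43 cells. So 5 of the 6 genes were at least 4-fold higher in cells without Pou5f1, as were 9.06% of the 11746 genes that averaged 10 or more reads a cell, while 27.8% were at least 4-fold lower. For none of the 6 did every cell without Pou5f1 lie above every cell with it, a pattern that 0.0341% of all genes showed. Of the 43 cells, 31 had none of the 6 genes detected. Against the 8 cells with both Gata6 and Pou5f1, the mean of the 5 cells gave ratios of 2.40 for Gata6, 3.73 for Gata4, 1.71 for Sox17, 1.95 for Sox7, 0.620 for Foxa2 and 3.05 for Pdgfra, so none reached 4-fold. Mean Foxa2 was lower in the 5 cells only through cell 33, at 151 CPM. The Foxa2 median was 18.1 CPM in the 5 cells and 0.136 CPM in the 8.

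Without the highest cell on each side, the ratio was 14.1 for Gata6 and 24.4 for Gata4, but it moved by over 1.5 times for the other 4 genes. It was then 32.4 for Foxa2 (without cells 22 and 33), 16.8 for Sox17 (without cells 3 and 33), 16.8 for Sox7 (without cells 22 and 40) and 8.76 for Pdgfra (without cells 38 and 4). With the Pou5f1 minimum at 1 read, which leaves cells 22 and 25 on the low side, Pdgfra was level between the sets at a ratio of 1.03, because cells 38 and 32, with most Pdgfra, have 2 and 4 Pou5f1 reads. Pou5f1 has closely related processed copies in the mouse genome, and how reads with several matches were counted is not given in the sources used here.

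Co-detection was nested for some pairs of genes but not for all, and Gata6 and Pdgfra were detected in all 13 cells. All 9 cells with Sox7 had Gata4, Gata6 and Pdgfra, and all 7 cells with Foxa2 had Sox17, Gata6 and Pdgfra. Sox7 and Foxa2 met in 4 cells, which were the 4 cells with all 6 genes: 22, 25 and 38 without Pou5f1 and 41 with it. Of the other 9, cells 32 and 33 lacked Sox7 alone, cells 3, 27 and 40 lacked Foxa2 alone, and cell 13 lacked both. Cells 4 and 6 had neither Sox17 nor Foxa2, and cell 2 had neither Gata4 nor Sox7. All 5 cells without Pou5f1 had at least 5 genes detected, against 4 of the 8 cells with both Gata6 and Pou5f1. Sox7 was seen in 4 of 5 and 5 of 8 cells of these sets, and Foxa2 in 4 of 5 and 3 of 8. Whether these shares differ was not tested. Cell 25 counts for Foxa2, and so for all 6 genes, with 5 reads after thinning, the minimum itself. At a minimum of 10 reads Foxa2 was detected in 6 cells in place of 7.

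**Figure D3:**
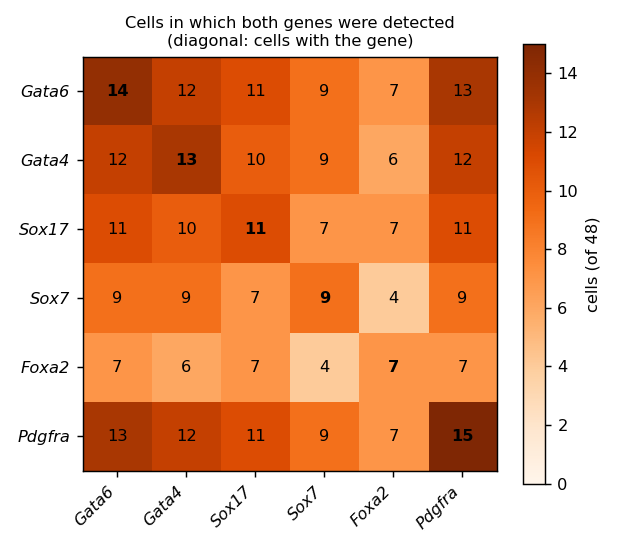
Number of cells, of 48, in which each pair of genes was detected. The diagonal gives the cells with each gene, from 7 for Foxa2 to 15 for Pdgfra. The Sox7 row equals its diagonal of 9 in the Gata6, Gata4 and Pdgfra columns and drops to 4 in the Foxa2 column.

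Within the 13 cells the genes did not all scale together. Gata4 and Sox7 levels had a Spearman correlation of 0.80 over the 13 cells and 0.71 over the 8 with Pou5f1. Cells 2 and 32, the lowest in Gata4, had no Sox7 read. Sox17 went with Gata6 (0.70 over 13 cells, 0.60 over 8). Sox7 had no such relation to Foxa2 (-0.08 over 13 cells, -0.30 over 8) or to Pdgfra (-0.10 and 0.14). Gata6 and Gata4 had 0.57 over the 13 cells and 0 over the 8. All points share 1 culture condition and 1 scaling, and with 8 or 13 cells these values describe the cells and no more.

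**Figure D4:**
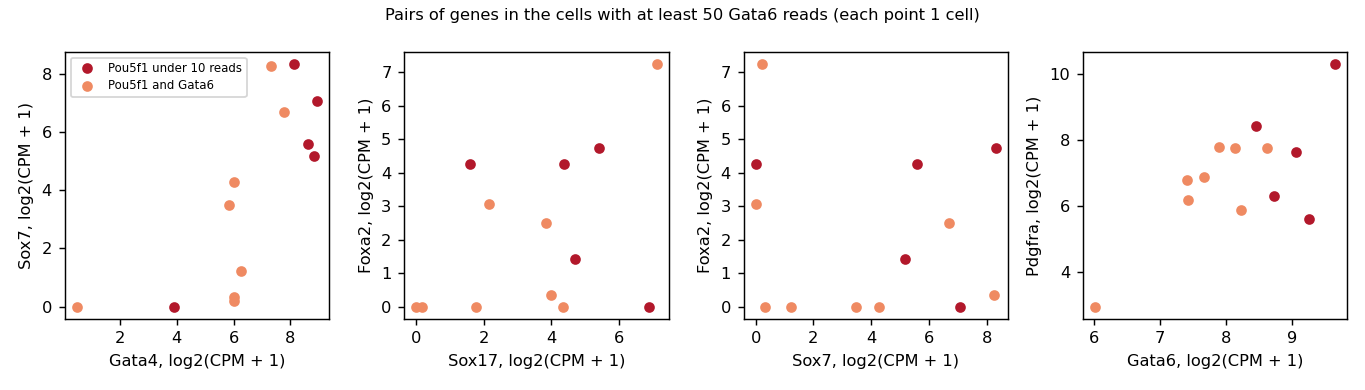
Level of 4 pairs of genes in the 13 cells with at least 50 Gata6 reads, each axis in log2(CPM + 1), with 5 cells under 10 Pou5f1 reads in red and 8 cells with Pou5f1 in orange. Gata4 and Sox7 run together (Spearman correlation 0.80), whereas cells with high Foxa2 include some with no Sox7 (-0.08).

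Promoter windows of Foxa2 and Pdgfra were taken from RefSeq (build GRCm38.p6, not the mm9 build of the counts). The 250 bases before each start were searched on both strands for GATAA, the core letters bound by GATA factors, for ACAAT, the core of SOX sites, and for TGTTTAC, a forkhead motif. Of the 6 genes, only these 2 had a promoter entry that was used, and a window of each is shown. Foxa2 has 3 starts, and the window of the most internal one, which lies in an intron of 3 longer Foxa2 transcripts, held the only match of the 4 windows, printed in capitals:
Foxa2, chr2:148045465-148045714, minus strand: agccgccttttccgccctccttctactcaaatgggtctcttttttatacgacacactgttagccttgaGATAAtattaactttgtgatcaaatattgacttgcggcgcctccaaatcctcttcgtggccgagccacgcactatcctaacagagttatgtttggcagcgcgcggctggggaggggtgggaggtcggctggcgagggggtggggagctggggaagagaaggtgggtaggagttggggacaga
Pdgfra, chr5:75152001-75152250, plus strand: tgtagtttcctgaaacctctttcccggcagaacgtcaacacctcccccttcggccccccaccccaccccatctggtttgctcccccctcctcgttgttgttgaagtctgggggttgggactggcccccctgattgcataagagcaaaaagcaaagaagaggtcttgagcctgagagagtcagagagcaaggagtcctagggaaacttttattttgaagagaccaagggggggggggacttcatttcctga

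The Pdgfra window overlaps no annotated exon and holds none of the 3 motifs. Among 32851 promoter windows of the same length, 22.6% hold GATAA, 27.7% ACAAT and 3.17% TGTTTAC. A match of this kind describes the letters and shows no binding, and its absence from a window leaves other sites of the gene unseen.

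Genes whose levels over the 48 cells were most like each of the 6 were found by Pearson correlation of log2(CPM + 1) among 11745 genes, with the 6 genes themselves left out of the 5 nearest. All points share the division into 13 and 35 cells, which by itself gives high values. The choice of measure mattered: of the 30 places (5 for each gene), a Spearman ranking kept 6 and log2(CPM + 10) kept 14. For Gata6 the closest were Hs3st1 (0.99), a heparan sulfate sulfotransferase, Srgn (0.98), the proteoglycan serglycin, Pla2g12b (0.98), Dab2 (0.97), an endocytic adaptor of the endoderm, and Nxf7 (0.97). Pdgfra ranked at 5, Gata4 at 14, Sox17 at 34, Sox7 at 99 and Foxa2 at 186. For Gata4 they were Nxf7, Pla2g12b, Dab2, Ctsh (cathepsin H) and Hs3st1 (0.96 to 0.92), and for Pdgfra they were Srgn, Hs3st1, Pla2g12b, Dab2 and Col4a2 (0.98 to 0.94). Sox17 was nearest to Nxf7, Bmp2, Pla2g12b, Hs3st1 and Srgn (0.86 to 0.83).

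The gene most like Sox7 was Gata4 itself (0.86), followed by Col27a1, Arhgef40, Spink3, Nxf7 and Ptger3 (0.83 to 0.79). Foxa2 was nearest to Pkd1 (polycystin 1), Tns4, Lhfpl2, Ano10 and Ets1 (0.73 to 0.71). Hs3st1, Nxf7 and Pla2g12b each stood among the 5 nearest of 4 of the 6 genes. The level of Hs3st1 shows the shape they share: a mean of 541 CPM in the 5 cells, 173 in the 8 and 0.297 in the other 35.

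Close relatives of the 6 genes were found outside the 13 cells as well, or hardly at all. Of the other GATA genes, Gata3 was detected in 4 of the 13 cells and 5 of the other 35, Gata1 in 0 and 3, and Gata2 in 1 and 4. Over the 5 GATA genes with enough reads, 3 were at least 4-fold higher without Pou5f1 and 2 lower (9.06% and 27.8% of all genes). The higher ones were Gata6 and Gata4 themselves and Gata2, the last from 1 cell. Sox18, the third SOX F gene, had 5 reads in all, Gata5 had 3 and Foxa1 had 1. Foxa3 was detected in 4 cells, none of them among the 13.

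Ligands and receptors of PDGF and FGF signalling were divided between the cells. Pdgfa, which encodes the PDGF-AA ligand, was detected in 25 of the 35 cells, 2 of the 8 and 1 of the 5, where Pdgfra had 2, 8 and 5. Mean Pdgfa was 29.0 ± 48.2 CPM in the 35 cells, 2.25 ± 3.89 in the 8 and 14.0 ± 30.6 in the 5 (SD over cells), the last from 1 cell at 68.7 CPM. Pdgfrb, the other PDGF receptor, was detected in 3, 1 and 0 cells of these sets.

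Fgf4, the ligand that promotes primitive endoderm in the embryo, was detected in 34 of the 35 cells, 6 of the 8 and 1 of the 5. Its mean level was 147 ± 93.9 CPM, 56.0 ± 45.1 and 1.65 ± 3.34 CPM in the same order. Fgfr1 was detected in 28 of 35, 5 of 8 and 1 of 5 cells, and Fgfr2, the receptor associated with the primitive endoderm, in 5 of 35, 2 of 8 and 4 of 5. Fgfr3 was detected in 2 of 35, 6 of 8 and 2 of 5 cells, and Fgfr4 in 4 of 35, 2 of 8 and 2 of 5. In the 5 cells Fgfr3 had a median of 0.365 and a highest level of 174 CPM, and Fgfr4 0 and 121 CPM. Their means there rest mostly on the highest cell. Of 17 genes of this pathway, Fgfr2, Fgfr3 and Fgfr4 were at least 4-fold higher without Pou5f1, and Fgf4, Fgfr1, Mapk3 and the ERK-responsive Spry1, Etv4 and Etv5 at least 4-fold lower. Spry2, Spry4, Dusp6 and Dusp4 of the same list did not reach 4-fold, with ratios of 0.817, 0.632, 0.762 and 2.19. The 6 of 17 that were lower stand beside 27.8% of all genes and the 3 that were higher beside 9.06%. Their median log2 ratio was -0.63, beside -0.29 over all genes.

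**Figure D5:**
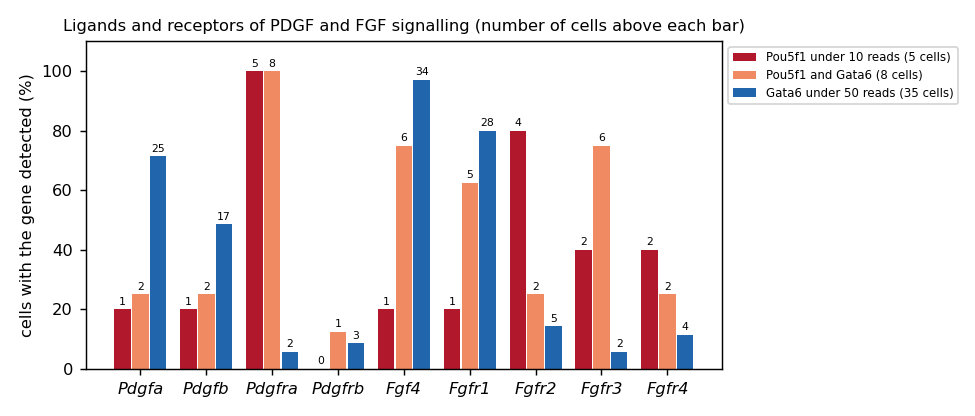
Percent of cells with each ligand or receptor gene detected in the 5 cells under 10 Pou5f1 reads, the 8 cells with Gata6 and Pou5f1 and the 35 cells under 50 Gata6 reads, with the number of cells above each bar. Pdgfra is detected in all 13 cells of the first and second sets and in 2 of the 35, whereas Pdgfa is detected in 3 and 25, and Fgfr2 and Fgf4 run in opposite order.

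Effectors of the primitive endoderm accompanied the 6 genes. Of 15 such genes with enough reads, 13 were at least 4-fold higher without Pou5f1 and none at least 4-fold lower, beside 9.06% and 27.8% of all genes, with a median log2 ratio of 3.16. Dab2 had a mean of 1127 ± 1449 CPM in the 5 cells, 444 ± 497 in the 8 and 0.712 ± 0.704 in the other 35. The basement membrane chain Col4a1 had 3005 ± 1698, 2258 ± 706 and 6.63 ± 9.88 CPM, and the laminin chain Lama1 had 3345 ± 1725, 1918 ± 1140 and 19.5 ± 29.3 CPM. The 8 cells with Pou5f1 thus held these products far above the other 35. The summed level of the list was 18210 to 54222 CPM in the 5 cells, 11828 to 51766 in the 8 and 145 to 1766 in the 35.

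Among 10 other transcription factors of the endoderm with enough reads, 4 were at least 4-fold higher without Pou5f1, among them Tcf7l2, Cited1 and Foxq1, and Hnf4a and Hhex were lower (median log2 ratio 1.42), beside the same 9.06% and 27.8%. Hnf4a was nonetheless detected in 2 of the 8 cells and 0 of the 35. Foxq1, a forkhead factor, was detected in 9 of the 13 cells and 0 of the other 35. Cited1 was detected in 12 of 13 and 10 of 35. Of 18 pluripotency genes, 14 were at least 4-fold lower without Pou5f1, beside 27.8% of all genes, and none higher (median log2 ratio -3.91). Among the 14 was Pou5f1 itself, whose place follows from the division. The summed level of the 18 genes was 2639 to 10403 CPM in the 5 cells, 1245 to 4988 in the 8 and 3514 to 12915 in the 35. The sum overlapped between the sets, and Sall4, which the endoderm also expresses, made up most of its highest value in the 5 cells, with 9851 CPM.

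Several defining markers of other cell types had no reads, and others were detected in some of the 13 cells. Mesendoderm genes T, Gsc, Cer1, Mesp1 and Evx1 and the trophectoderm gene Cdx2 had 0 reads in all cells, and Cxcr4, a marker of definitive endoderm, had 12. Mixl1 was detected in 2 of the 13 cells and 4 of the other 35, and Eomes, on both lists, in 2 and 7. Of trophectoderm genes, Tfap2c was detected in 2 and 24 cells, Gata3 in 4 and 5 and Krt7 in 1 and 5. Tfap2a had 1 and 0, and Hand1 and Esx1 each had 0 and 2. The summed mesendoderm list reached 32.8 CPM in the 5 cells, 15.1 in the 8 and 71.9 in the 35. Trophectoderm genes summed to at most 15.9 CPM in the 5, 45.8 in the 8 and 567 in the 35. Fibroblast genes Col3a1, Dcn, Lum, Postn and Prrx1 had 0 reads, and their list reached 4.98, 7.15 and 35.9 CPM. Of 5 endothelial genes Tie1 had 0 reads, and their sum reached 48.7, 19.1 and 333 CPM. Cdh5, the endothelial cadherin, was detected in 3 of the 13 cells (32, 33 and 38, each with Foxa2) and in 0 of the other 35, while Kdr was detected in 0 of the 13. Tek was detected in 6 of the 13 and 8 of the 35, and Pecam1 in 3 and 27. The part of these genes in the results was not tested.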

How the data were processed

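Read counts per gene were deposited by the authors as whole numbers without normalization, for 96 samples that are 48 cells on 2 lanes each. Cells were captured on a microfluidic chip, amplified with a SMARTer kit and made into Nextera XT libraries, per the labels' protocols. Tools listed in the submitters' processing notes are featureCounts, Subread 1.4.5-p1 and STAR 2.3.1z12, and the build listed is mm9. The annotation and the handling of strand and of multiple matches are not given in the sources used here.

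Lanes were summed. Counts were scaled to CPM with edgeR 4.0.16 (TMMwsp factors) in R 4.3.3, and correlations used log2(CPM + 1). Lengths per kilobase were merged GENCODE exons of build GRCm38. Detection used thinned counts (seed 1) and at least 5 reads. Ratios of mean CPM covered genes averaging 10 or more reads a cell, and a set at 0 was given a floor of 3 reads over the set. Simulated data had a known fold between cells high and low in Gata6. They tested only the ratio of means and the correlation of a gene with that division. Correlations between genes, the division by Pou5f1, the scaling factors and detection were not simulated. Genes named are the 6, Pou5f1, the 5 nearest of each and members of 14 gene lists. The genes, lists and division by Pou5f1 were chosen with earlier results of these data known. Alternatives changed the minimum of reads, scaling, filter, pseudocount and measure of likeness, used unthinned counts or single lanes, or left out the highest cell.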

Additional observations from a re-analysis of the deposited data

How the results depend on the processing

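Results were recomputed under other read minimums, scalings, filters and pseudocounts and without the highest cell. No ratio of the 6 genes between the Pou5f1 sets reversed. Weak correlations did change sign between the 14 cells with Gata6 detected and the 13 cells. They were 0.033 and -0.11 for Sox17 and Pdgfra, 0.018 and -0.10 for Gata4 and Foxa2, and 0.0066 and -0.10 for Sox7 and Pdgfra. Ratios against the cells with both Gata6 and Pou5f1 were not recomputed. At 1 read as the minimum, 22 cells in place of 13 had at least 3 of the 6 genes, and 17 in place of 8 among cells with 10 Pou5f1 reads. Detected cells then numbered 34 for Gata6, 28 for Gata4, 15 for Sox7 and 24 for Pdgfra. With the Pou5f1 minimum at 1 read, 2 cells in place of 5 lay on the side without Pou5f1, and ratios were 6.77 for Gata6, 10.4 for Gata4, 4.60 for Sox17 and 1.03 for Pdgfra. At 100 Pou5f1 reads they were 13.1 for Gata4, 31.6 for Sox17, 6.08 for Sox7 and 87.4 for Foxa2, where cell 33 is among those that change sides. Without the highest cell on each side they were 16.8 for Sox17, 16.8 for Sox7, 32.4 for Foxa2 and 8.76 for Pdgfra. The share of all genes at least 4-fold higher was 16.0% with no filter, and the share lower was 18.2% where genes had to average 50 reads or more. Of the 30 places among nearest genes, 6 were shared with a Spearman ranking and 14 with log2(CPM + 10). The causes were not tested beyond the change of sides. Correlations within the 13 cells, and detection among them, were added after seeing the data. Foxa2 and Sox17 depth limits their values, since several cells had under 50 reads.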

Other observations

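Genes of the visceral and parietal endoderm, the layers that follow the primitive endoderm, were uneven over the 13 cells. Of 9 parietal genes with enough reads, 6 were at least 4-fold higher in the cells without Pou5f1 and none lower (median log2 ratio 2.80), beside 9.06% and 27.8% of all genes. Within the 5 cells, Stra6 was detected in 1, Thbd in 2, Fst in 3, Krt19 and Vim in 4 and Pth1r in 5. Pth1r, the parathyroid hormone receptor, was detected in 12 of the 13 cells and 0 of the other 35, Plat, tissue plasminogen activator, in 11 and 1, and Thbd, thrombomodulin, in 8 and 0. Of 7 visceral genes with enough reads, Afp, Cubn and Bmp2 were at least 4-fold higher without Pou5f1, and Hnf4a and Trf lower. Within the 5 cells, Afp was detected in 1, Cubn in 3 and Bmp2 in 4. Cubn there had a median of 4.17 and a highest level of 1842 CPM. The 2 of 7 visceral genes that were lower lie near the 27.8% of all genes. Afp, alpha-fetoprotein, was detected in 2 of the 13 cells and Ttr, transthyretin, in 1, while Apob, Apoa4 and Cer1 had 0 reads in all cells. Cubn, the cubilin receptor, was detected in 8 of the 13 and in all 4 cells with all 6 genes. Lists for both layers share genes with the list of primitive endoderm effectors.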
